A study of Homo sapiens with 6 samples.

Results

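A library of 5-fluorouracil resistant HCT116 cells given an siRNA labelled as control was compared with a library of the untransfected resistant cells, as the log2 ratio of FPKM with 1 added (FPKM, sequenced fragments scaled to transcript length and library size). Of 19942 gene symbols, 11666 reached 1 FPKM in either library and were compared. CA14, at 1.00 and 0.540 FPKM without and with siRNA, was the gene closest above that level, and MUC20, at 0.588 and 0.9996, the closest below it. HCT116 is an established human colorectal carcinoma line, and 5-fluorouracil is a drug that starves cells of thymidylate and is built into their nucleic acids. The series holds 6 groups with 1 library each, made from total RNA: parental and resistant cells, left untransfected or given either control siRNA or siRNA against EHMT2, the gene of the histone H3K9 methyltransferase G9a. The series addresses transcription in acquired drug resistance when EHMT2 is reduced, and the control siRNA library is the reference for its knockdown.

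The target and sequence of the control siRNA, the reagent, the dose and the time from transfection to harvest were not given in the sources used here. Nor was whether drug was present in the culture, or whether the resistant cells are 1 clone or a mixture. The titles call both libraries 5-FU resistant, but the library names spell the cells as 5fu without siRNA and as 5fuR with control siRNA. Transfection, culture, library preparation and a difference between sublines therefore cannot be told apart in any value below. With 1 library a side the ratios have no replicate check and no p-value, and a fold on this scale understates the change of genes with low FPKM. In bulk RNA, fewer cells of a kind and less RNA per cell cannot be told apart either.

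A short interfering RNA is a duplex that the Argonaute proteins load and use to find messages of matching sequence. Cells can also read double-stranded RNA as a sign of infection through RIG-I, MDA5, PKR and the OAS enzymes, and answer with interferon and interferon-stimulated genes. For this reason a control duplex is usually carried beside a knockdown, and an untransfected sample shows what the procedure itself changes.

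At least 2-fold differences were found in 954 genes, which is 8.18% of those compared. Control siRNA cells were higher in 503 (4.31%) and lower in 451 (3.87%), and at 4-fold the counts were 66 and 53. DUOX1, at 7.01 and 3.003 FPKM, lay just past 2-fold, and KRTAP2-4, at 0.251 and 1.502, just short of it. The median ratio of all genes compared was −0.05, and the 5th and 95th percentiles were −0.91 and 0.92. In parental cells the same pair of conditions gave 353 genes (3.03%) of 11631, with 111 higher (0.954%) and 242 lower (2.08%), and a median of 0.04. Counts of list members below are to be read beside these shares of all genes compared.

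The other 4 libraries give a scale for this count. Resistant cells with control siRNA differed at least 2-fold from parental cells with control siRNA in 296 genes (2.56%), from untransfected parental cells in 320 (2.76%), from resistant cells with EHMT2 siRNA in 1088 (9.26%) and from parental cells with EHMT2 siRNA in 1805 (15.1%). Untransfected resistant cells differed from the same 4 libraries in 761 (6.51%), 868 (7.4%), 1768 (14.9%) and 1579 genes (13.1%). The 954 genes between both resistant libraries thus lay above the counts to either parental library without EHMT2 siRNA and below those to the libraries with it. The untransfected resistant library was the lowest of all 6 for 2098 of the 11666 genes and the highest for 2354. Among the 503 higher and 451 lower genes it was so for 368 and 324, but these genes were chosen by their level in this same library and nothing is read from those shares. Across 11395 genes measured in both lines, the ratios of the resistant and parental pairs had Pearson's r = −0.015, given as a description over genes that are not independent. Of 482 higher genes also measured in the parental pair 14 were at least 2-fold higher there and 47 at least 2-fold lower, while of 395 lower genes 35 were at least 2-fold lower there and 9 higher. Among all 11631 genes of the parental pair, 111 (0.954%) were at least 2-fold higher and 242 (2.08%) lower.

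**Figure D1:**
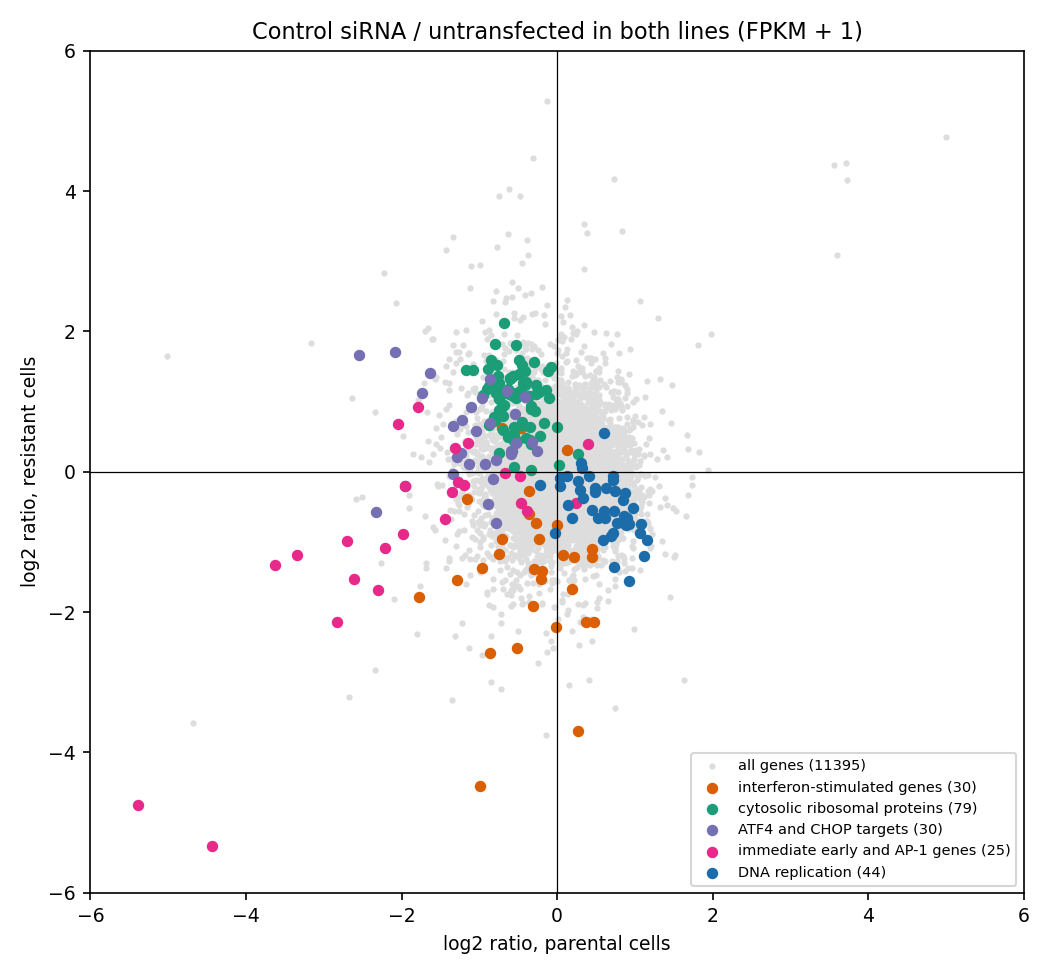
Each point is 1 of 11395 genes, with the log2 ratio of FPKM + 1 between control siRNA and untransfected cells in parental cells on the horizontal axis and in resistant cells on the vertical axis, 1 library per condition. Ribosomal protein and ATF4 target genes lie mostly in the upper left (medians 1.09 and 0.42 in resistant, −0.56 and −0.94 in parental cells), replication genes in the lower right (−0.55 and 0.66), and FOS and FOSB at the far lower left.

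Both libraries had the epithelial markers of a carcinoma line. KRT8, KRT18, KRT19, EPCAM, CLDN4, CDH1 and CDX2 were above 1 FPKM, while the colon differentiation markers VIL1, CDX1 and LGALS4 were listed at 0. Of other cell types, 6 of 7 fibroblast, 4 of 7 immune and 4 of 4 endothelial markers were at 0 in both libraries, among them COL1A2, PTPRC and PECAM1. The summed level of the fibroblast list was 3.86 FPKM without and 3.35 with control siRNA, that of the immune list 3.70 and 5.64. Of the 3 neural markers only MAP2 was measured (12.5 and 6.90), and of the 3 muscle markers ACTA2 (6.80 and 4.14) and DES (3.13 and 0.25). The FPKM of a library summed to 376285 without and 387256 with control siRNA, and the number of reads behind them is unknown.

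The genes that sense the duplex RNA and its products gave no uniform picture. All 14 listed genes of the RNA interference machinery were measured, with a median ratio of −0.13 (0.33 in the parental pair) and 1 of them 2-fold lower. DGCR8, which with the nuclease DROSHA cuts primary microRNAs, was at 16.9 FPKM without and 6.83 with control siRNA, a ratio of −1.19. DROSHA had −0.83 and TARBP2, the partner of Dicer, −0.84, whereas DICER1 itself had −0.17. AGO2, the Argonaute that cuts the target, went the other way at 8.53 and 13.6, a ratio of 0.61. AGO1, AGO3 and AGO4 had −0.21, −0.12 and 0.16. The GW182 proteins that act with them had −0.24 (TNRC6A), 0.04 (TNRC6B) and 0.15 (TNRC6C). XPO5, which exports microRNA precursors, had −0.03, and the translin subunits TSN and TSNAX had −0.14 and −0.06. Of 16 genes of double-stranded RNA sensing 14 were measured, with a median of −0.37 (0.22 in the parental pair). RIG-I, listed as DDX58, was at 14.4 and 4.57 FPKM and PKR, listed as EIF2AK2, at 25.3 and 10.6, ratios of −1.47 and −1.19. These were the 2 members that reached 2-fold, and neither did so in parental cells, where they had −0.22 and 0.52. MDA5 (IFIH1) had −0.80, ZC3HAV1 −0.78, the adaptor MAVS −0.49, TLR3 −0.44, the editing enzyme ADAR −0.42 and TRIM25 −0.32. TBK1, TICAM1, STAU1, IKBKE and PRKRA lay between 0.06 and 0.42. DHX58 and ZBP1 stayed under 1 FPKM.

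Interferon-stimulated genes were lower in the control siRNA library. Of 45 listed genes 35 were measured, of which 32 had a ratio below 0. At least 2-fold lower were 24 of them, beside 3.87% of all genes compared, and 0 were 2-fold higher. The median was −1.38, beside −0.05 for all genes, and −1.17 with no filter on low values. Members such as IFI44 (16.4 and 0.80 FPKM) reached 1 FPKM in the untransfected library alone, so they could count only as lower. The parental pair had a median of −0.28 over 30 measured members, with 3 of them 2-fold lower. IFI6, a mitochondrial protein of the interferon response (chromosome 1, 27666061 to 27672218 on build GRCh38), was at 257.5 FPKM without siRNA and at 10.6 with control siRNA in resistant cells. It was at 18.1 and 8.58 in the matching parental libraries, and at 43.4 and 28.0 with EHMT2 siRNA in resistant and parental cells. The untransfected resistant library thus held the only IFI6 level above 100, and its ratio to control siRNA was −4.48. IFIT1, which binds foreign RNA caps (chromosome 10, 89392546 to 89406486), was at 34.4 without and 1.74 with control siRNA, against 1.74 and 2.30 in parental cells. ISG15, a ubiquitin-like modifier, was at 278 and 48.1, against 61.2 and 42.4. OAS3, an oligoadenylate synthetase, was at 36.5 and 7.53, against 7.20 and 10.4. In each case the untransfected resistant library was far above the other 3. The untransfected resistant library was the highest of all 6 for 27 of the 35 genes, beside 2354 (20.2%) of the 11666 genes compared. Some of these members passed the filter through this library alone. The summed level of the 45 listed genes was 1846 FPKM in untransfected and 754 in control siRNA resistant cells. In parental cells it was 924 and 635, and with EHMT2 siRNA 1551 in resistant and 1232 in parental cells. OAS1, which the files list as AC004551.1, had a ratio of −2.66, and IFI44, IFI27 and OASL had −3.27, −3.05 and −2.58. Only DDX60L (0.63), IFITM2 (0.62) and HERC5 (0.31) were above 0. CXCL10, MX2, OAS2, RTP4 and XAF1 were listed at 0 in both libraries, and the other 5 unmeasured members stayed under 1 FPKM.

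**Figure D2:**
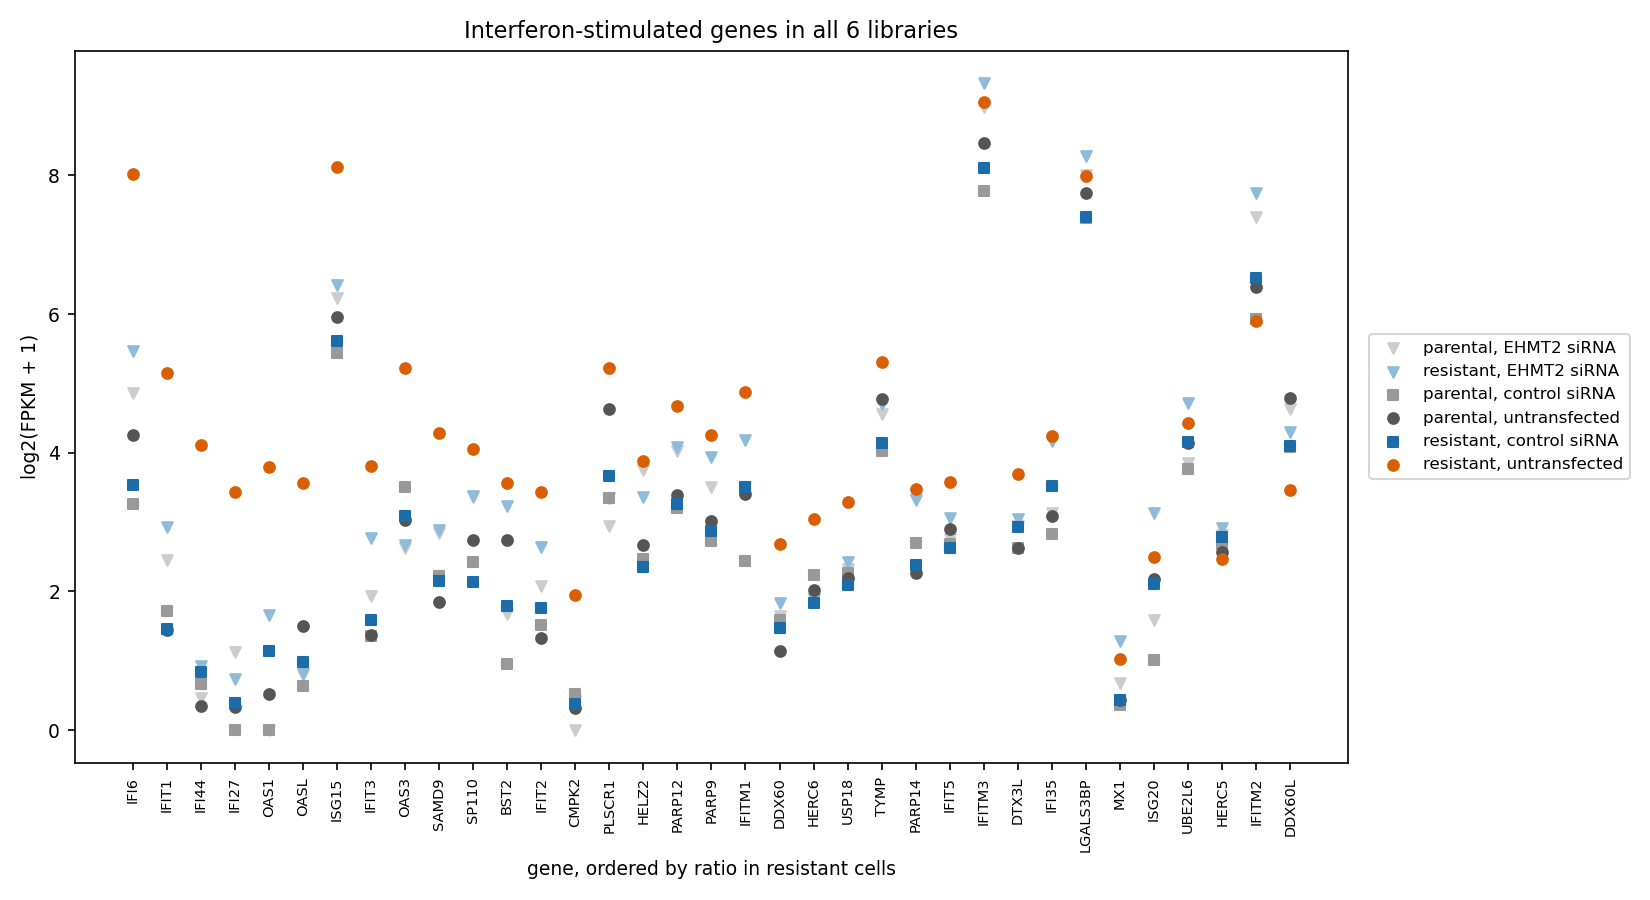
The 35 measured interferon-stimulated genes, ordered by their ratio in resistant cells, with log2(FPKM + 1) on the vertical axis and 1 symbol per library. The orange circles of untransfected resistant cells are the highest symbol for 27 genes. The blue squares of resistant cells with control siRNA mostly lie near the parental libraries without EHMT2 siRNA.

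The transducers of the interferon signal followed these targets in part. STAT2 was at 28.2 FPKM without and 11.8 with control siRNA, and IRF7 at 22.2 and 3.68, ratios of −1.19 and −2.31. IRF7 was lower in the parental pair too, at 8.76 and 1.80, a ratio of −1.80. STAT2 enters the complex ISGF3 together with IRF9, which was at 14.4 and 1.34, but 48.4% of the exonic bases of IRF9 are shared with another gene, so its level is uncertain. Receptors and upstream factors lay on both sides of 0. IFNAR1 had −0.21, IFNAR2 0.31, IFNGR1 0.11, IFNGR2 0.88, JAK1 0.37, TYK2 −0.52 and IRF3 0.01, and the inhibitor SOCS1 was at 0.60 and 2.91, a ratio of 1.29. Over the 18 measured members of the signalling list the median was 0.06. IFNB1 was listed at 0 in both libraries. The lambda interferons IFNL1, IFNL2 and IFNL3 were listed at 0.62, 0.23 and 0.28 FPKM without siRNA and at 0 with it, too low to compare. Antigen presentation by MHC class I, which interferon also drives, had a median of 0.45 over 15 genes (0.13 under quantile normalisation), with TAPBP at 0.99, HLA-B at 0.80 and PSMB9 at 0.91, and only NLRC5, its transactivator, at least 2-fold lower (5.07 and 1.06, a ratio of −1.56).

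ISGF3 reads a sequence that lies before the start of many interferon-stimulated genes. The 250 bases before the annotated start (RefSeq, build GRCh38.p14) were searched on both strands for the core of the interferon-stimulated response element, which is GAAA, then any 2 bases, then GAAA, with overlapping matches included. It was present in 20 of the 30 interferon-stimulated genes with a promoter entry (66.7%) and in 212 of 9244 measured genes (2.29%). Among those at least 2-fold apart it was present in 14 of 20, among the others in 6 of 10. The promoters of 4 of the genes described above are shown because their levels set untransfected resistant cells apart. Matches are in capitals, so a stretch beginning with TTTC is a match on the other strand. In order, they lie at chr1:27672193-27672442 on the minus strand and at chr10:89392373-89392622, chr1:1013247-1013496 and chr12:112938224-112938473 on the plus strand.
IFI6: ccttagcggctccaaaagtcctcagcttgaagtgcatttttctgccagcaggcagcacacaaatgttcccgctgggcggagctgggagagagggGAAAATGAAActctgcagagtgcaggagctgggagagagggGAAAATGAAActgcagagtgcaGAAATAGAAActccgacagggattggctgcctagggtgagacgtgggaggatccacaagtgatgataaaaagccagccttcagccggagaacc
IFIT1: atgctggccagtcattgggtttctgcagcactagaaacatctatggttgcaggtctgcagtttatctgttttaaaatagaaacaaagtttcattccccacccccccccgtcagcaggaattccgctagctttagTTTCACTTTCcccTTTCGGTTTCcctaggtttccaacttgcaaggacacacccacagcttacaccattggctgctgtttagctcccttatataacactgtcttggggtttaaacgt
ISG15: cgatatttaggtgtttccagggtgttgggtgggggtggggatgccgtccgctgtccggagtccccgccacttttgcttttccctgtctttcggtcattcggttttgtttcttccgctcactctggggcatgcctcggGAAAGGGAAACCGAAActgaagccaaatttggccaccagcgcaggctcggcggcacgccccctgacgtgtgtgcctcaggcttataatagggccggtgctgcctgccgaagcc
OAS3: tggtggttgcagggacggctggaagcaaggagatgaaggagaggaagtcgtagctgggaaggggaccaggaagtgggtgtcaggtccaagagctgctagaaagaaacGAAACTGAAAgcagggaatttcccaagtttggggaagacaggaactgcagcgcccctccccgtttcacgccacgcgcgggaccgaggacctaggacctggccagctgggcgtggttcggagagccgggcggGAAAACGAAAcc
IFI6 holds 3 matches and each of the other three holds 2. A match is a description of these letters and not a measured binding site.

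A whole chromosome arm differed as well. On chromosome 18, the 41 measured short-arm genes, between positions 158383 and 14132490, had a median ratio of −1.55, 40 of them were below 0 and 34 at least 2-fold lower. The arm thus held 7.54% of all genes that were 2-fold lower, with 41 of the 11666 genes compared. Of all genes compared, 3.87% were 2-fold lower. On the long arm, 119 measured genes had a median of −0.08, with 7 lower and 3 higher. In parental cells the short arm had a median of 0.06. The 41 genes had a median level of 40.1 FPKM in untransfected resistant cells, and between 10.4 and 11.8 in all the other libraries. The untransfected resistant library was the highest of 6 for 39 of them, beside 20.2% of all genes compared. TYMS, thymidylate synthase and the target of 5-fluorouracil (chromosome 18, 657604 to 673578), was at 294 FPKM without and 61.2 with control siRNA, a ratio of −2.25, while in parental cells it was at 46.1 and 92.4, a ratio of 0.99. Its level is uncertain, as 39.1% of the exonic bases of TYMS lie in ENOSF1 too, and that gene had −2.51. USP14, a deubiquitinase of the proteasome, was at 60.8 and 13.5, and THOC1, an mRNA export factor, at 62.0 and 6.68. The kinetochore gene NDC80 was at 66.6 and 17.6, the complex I subunit NDUFV2 at 268 and 90.9, and the myosin light chain MYL12B at 887 and 276. The genes named here have unlike roles, and why the arm differed was not tested. ZBTB14 (0.05), TGIF1 (−0.18) and GNAL (−0.19) were nearly level within this stretch. The arm was singled out with its values known.

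**Figure D3:**
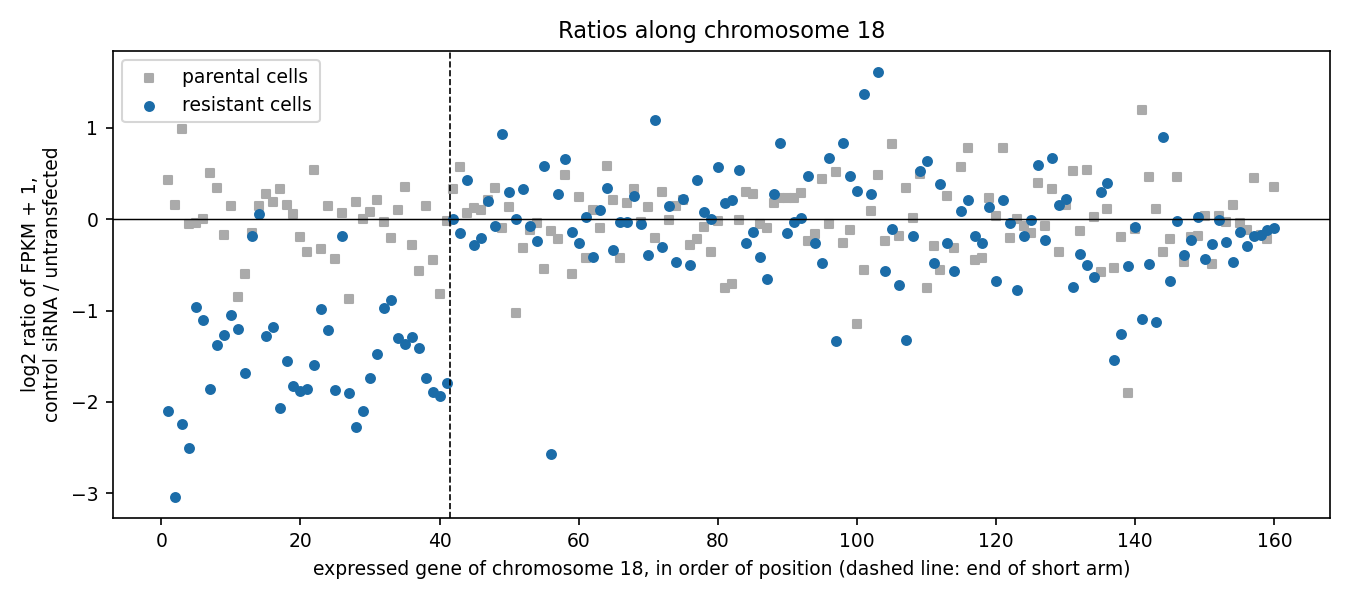
Log2 ratios of FPKM + 1 between control siRNA and untransfected cells for the measured genes of chromosome 18 in order of position, with resistant cells as blue circles and parental cells as grey squares, 1 library per condition. Left of the dashed line, the 41 short-arm genes of resistant cells centre on −1.55 and those of parental cells on 0.06.

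Chromosome 18 as a whole had a median of −0.24 over 160 genes. Medians of the other nuclear chromosomes, whose arms were not taken separately, lay between −0.17 for chromosome 16 and 0.19 for chromosome 17, where 52 of 728 genes were 2-fold higher and 6 lower. Clustered genes stood out on chromosome 11, where HBE1, an embryonic globin gene, was at 17.1 without and 83.7 FPKM with control siRNA (53.3 and 47.2 in parental cells). The overlapping OR51B5 was at 7.51 and 38.8, and HBG2 at 2.29 and 12.2. HBE1 shares 90.01% of its exonic bases with AC104389.4, so how the reads divide among these genes is uncertain, and they were chosen after their values were seen.

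Ribosomal protein messages were higher with control siRNA. All 79 cytosolic ribosomal protein genes had a ratio above 0, with a median of 1.09. Of them 46 were at least 2-fold higher, beside 4.31% of all genes compared. In parental cells their median was −0.56 and 2 were 2-fold lower, beside 2.08% of all genes there. Under quantile normalisation the median in resistant cells was 0.65, still above 0. These genes made up 9.74% of the summed FPKM in untransfected and 18.9% in control siRNA cells. RPL13 was at 230.5 and 1002 FPKM (1048 and 652 in parental cells), and RPL3, which lines the peptidyl transferase centre, at 496 and 1750 (1683 and 964). RPL37 and FAU, at 0.03 and 0.09, were nearly level. Their share was 16.2% in untransfected and 12.4% in control siRNA parental cells, and 11.9% and 9.28% with EHMT2 siRNA in resistant and parental cells. The lowest share was thus that of parental cells with EHMT2 siRNA. Untransfected resistant cells were nevertheless the lowest of 6 for 35 of the 79 genes, beside 18% of all genes compared. Many ribosomal protein genes have processed copies elsewhere in the genome, between which reads can divide. Translation factors had a median of 0.49 over 34 genes (0.23 under quantile normalisation), with 6 higher. Among these were EEF2, the translocase, at 348 and 1229, and EEF1A1, which carries aminoacyl-tRNA, at 1745 and 5940. Like the ribosomal protein messages, those of both elongation factors belong to the class with a terminal oligopyrimidine start. Genes of ribosome biogenesis had a median of −0.17, with 0 of 33 at 2-fold in either direction.

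Messages encoded by mitochondrial DNA were lower, all 13 of them, with a median of −0.85 and 4 at least 2-fold lower, and with −0.41 in the parental pair. Quantile normalisation brought the resistant median to −0.31. Their share of the summed FPKM was 17.97% in untransfected and 9.74% in control siRNA resistant cells. MT-ND6 (3767 and 1600) and MT-ND5 (3385 and 1547), both of complex I, were among those 2-fold lower, and MT-CYB of complex III (2187 and 1438) was the least changed. Nuclear genes of the respiratory chain had a median of 0.01 over 63 members.

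Genes of cell division were lower with control siRNA, by less than 2-fold in most cases. DNA replication genes had a median of −0.55, with 41 of 44 below 0. Of these 44 genes 3 were at least 2-fold lower, beside 3.87% of all genes compared. In parental cells their median was 0.66, with 4 at least 2-fold higher, beside 0.954% of all genes there. POLE, the leading-strand polymerase, was at 31.7 without and 10.1 with control siRNA (11.7 and 23.1 in parental cells), and POLD1 at 25.8 and 9.48 (11.2 and 19.2). CLSPN, which relays replication stress to CHK1, was at 9.86 and 3.75 (3.76 and 9.34). The sliding clamp PCNA was at 203 and 104 (90.5 and 137). For all 4 genes the untransfected resistant and control siRNA parental libraries were the high ones of the 4. Mitotic genes had a median of −0.37 over 40 members (0.54 in parental cells), and DNA repair genes −0.37 over 41 (0.38), with XRCC2, FANCA and RAD54L 2-fold lower, the last with 25.1% of its exonic bases shared. Among genes of nucleotide supply, RRM2 had −0.54, DUT −0.69 and TK1 −0.21. CCND1, cyclin D1, was at 263 and 99.5, and E2F2 at 6.02 and 2.15. MYC had a ratio of 0.42. Histone messages, of which 12 of 41 listed were measured, had a median of −1.05 with 7 at least 2-fold lower, among them HIST1H1C (21.3 and 8.21). With no filter on low values the median was −0.32, and HIST1H2BC, HIST2H2AC, HIST2H2BE and HIST1H4I passed the level of 1 FPKM through the untransfected library alone, so they could count only as lower. Most histone messages carry no poly(A) tail, and how fully the kit captured them was not examined.

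Genes of drug uptake and breakdown were mostly lower too, 11 of 13 measured, with a median of −0.24. In parental cells 9 of 13 were below 0, with a median of −0.11. NT5E, an ecto-nucleotidase, was at 101 and 41.3, TYMP, thymidine phosphorylase, at 38.7 and 16.7, and CDA, cytidine deaminase, at 30.7 and 13.4, all 3 at least 2-fold lower. UMPS, which can turn the drug into a nucleotide, had 0.10, and DPYD, which degrades the drug, stayed under 1 FPKM in both libraries.

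Immediate early genes had medians below 0 in both lines. FOS was at 237 FPKM in untransfected and 4.93 in control siRNA resistant cells, and at 345 and 15.0 in parental cells, ratios of −5.33 and −4.43. FOSB was at 49.2 and 0.87, and at 67.5 and 0.63, ratios of −4.75 and −5.39. With EHMT2 siRNA, FOS was at 8.07 in resistant and 4.71 in parental cells, so both untransfected libraries were high and all 4 siRNA libraries low. Of 25 genes in this list 8 were 2-fold lower in resistant and 19 in parental cells, with medians of −0.45 and −1.79. Over all genes compared, 3.87% were 2-fold lower in the resistant and 2.08% in the parental pair. EGR1 was at 197 and 78.0 in resistant cells and at 243 and 18.8 in parental cells. JUN had −1.53 and −2.61, DUSP1, which switches off MAP kinases, −2.14 and −2.83, and NR4A1 −1.69 and −2.30. MYC, KLF2, EGR3 and NR4A2 were above 0 in resistant cells (0.33 to 0.92) and below −1 in parental cells. ERK feedback genes and ligands had a median of 0.77 over 17 members (−0.33 in parental cells). AREG, an EGF receptor ligand, was at 27.8 and 116 (346 and 153 in parental cells), EREG at 21.0 and 65.3, and DUSP5, a nuclear phosphatase of ERK, at 22.2 and 85.5 (70.0 and 22.5). The feedback inhibitors SPRY1 and SPRY4 had 1.39 and 1.37.

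Targets of ATF4 and CHOP, the transcription factors of the integrated stress response, had a median of 0.42. Of 30 measured, 24 were above 0 and 8 at least 2-fold higher, beside 4.31% of all genes compared. In parental cells their median was −0.94, with 14 at least 2-fold lower and 0 higher, beside 2.08% and 0.954% of all genes there. TRIB3 was at 13.6 without and 45.4 with control siRNA in resistant cells, and at 77.0 and 12.3 in parental cells. CHAC1, which degrades glutathione, was at 6.33 and 23.01, and at 19.3 and 3.81. ASNS, asparagine synthetase, was at 65.5 and 144, and at 133 and 39.2. DDIT3, which encodes CHOP, was at 15.3 and 42.5, and at 24.6 and 7.25, though 39.6% of its exonic bases are shared with another gene. For these 4 genes control siRNA was higher in resistant and lower in parental cells. ATF4 itself had 0.12 and −1.13. The sequence TGATGNAA, the core of the combined CEBP and ATF site, was found on either strand in the same 250 bases of 4 of 26 targets (15.4%) and in 113 of 9244 measured genes (1.22%). ASNS and CHAC1, shown because their ratios were opposite in the lines, are among those 4, with the match in capitals, on the reverse strand in CHAC1. They lie at chr7:97872409-97872658 on the minus strand and at chr15:40953221-40953470 on the plus strand (RefSeq, build GRCh38.p14).
ASNS: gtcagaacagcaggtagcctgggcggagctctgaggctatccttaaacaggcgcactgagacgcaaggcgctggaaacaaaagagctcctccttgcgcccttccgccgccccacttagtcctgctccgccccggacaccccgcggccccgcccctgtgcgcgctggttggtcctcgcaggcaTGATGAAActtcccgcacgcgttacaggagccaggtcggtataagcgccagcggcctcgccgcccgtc
CHAC1: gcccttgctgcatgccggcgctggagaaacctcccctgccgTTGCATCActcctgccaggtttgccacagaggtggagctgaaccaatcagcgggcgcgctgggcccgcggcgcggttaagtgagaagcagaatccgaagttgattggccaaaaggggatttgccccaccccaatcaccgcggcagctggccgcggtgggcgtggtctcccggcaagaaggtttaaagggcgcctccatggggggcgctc
Genes of the unfolded protein response in the endoplasmic reticulum had a median of 0.14, with XBP1 at 1.42 and DNAJB9 at 1.12, and aminoacyl-tRNA synthetases had 0.25. Heat shock chaperones had 0.05, but 0.93 in parental cells, with 9 of 25 at least 2-fold higher there. HSPA1A and HSPA1B, near-identical copies whose reads can divide, had −1.19 and −1.22 in resistant and 1.52 and 1.51 in parental cells. Proteasome subunits had −0.09 and 0.50.

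**Figure D4:**
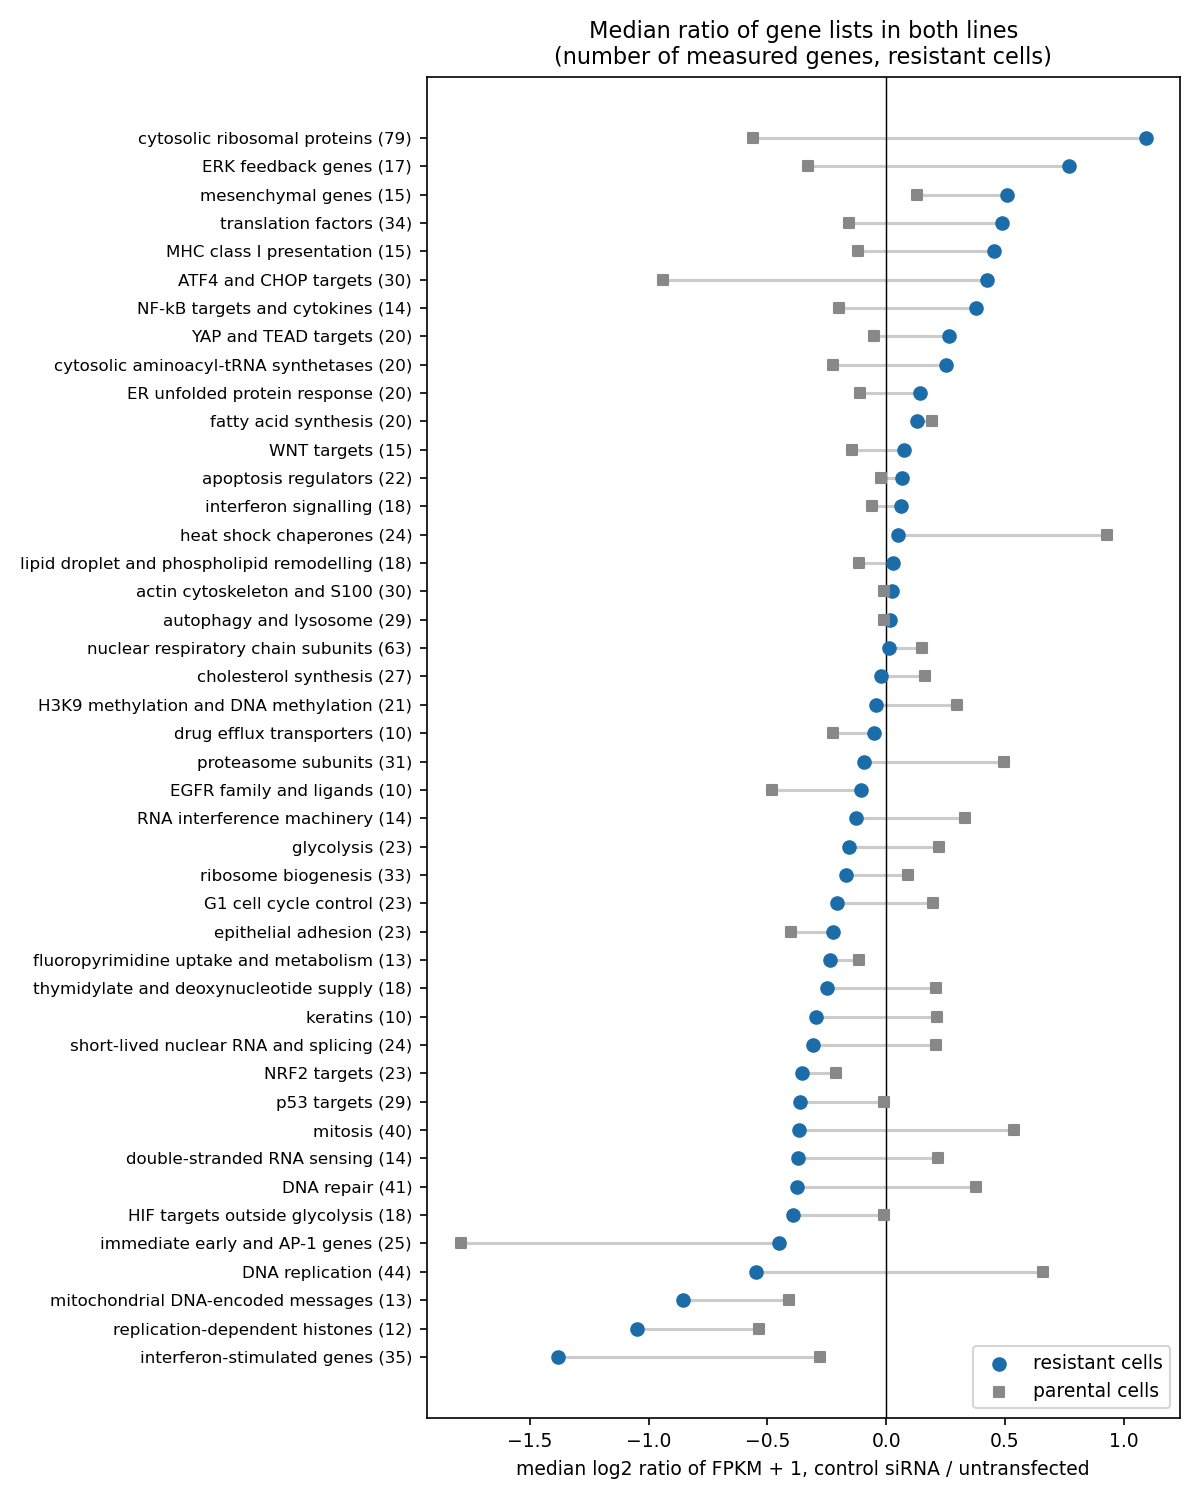
Median log2 ratio of FPKM + 1 between control siRNA and untransfected cells for each gene list with at least 10 measured members in resistant and 7 in parental cells, with circles for resistant and squares for parental cells and the number of measured genes in resistant cells in brackets. The longest lines join ribosomal proteins (1.09 and −0.56), ATF4 targets (0.42 and −0.94), immediate early genes (−0.45 and −1.79) and DNA replication (−0.55 and 0.66).

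Genes of cell identity were split. Mesenchymal genes had a median of 0.51 over 15 measured members, with 6 at least 2-fold higher and 1 lower, and of 0.16 with no filter on low values. VIM, vimentin, was at 2.56 and 13.9, FN1 at 1.13 and 4.02, and ZEB1, a repressor of epithelial genes, at 0.81 and 3.20, while SPARC and TWIST1 were listed at 0 without and at 4.98 and 2.95 with control siRNA. These last 3 genes passed the level of 1 FPKM through the control siRNA library alone and could count only as higher. SNAI2 went the other way, at 3.43 and 0.25, and passed through the untransfected library alone. Epithelial adhesion genes had a median of −0.22 over 23 members. Beside 3.87% of all genes compared, 5 of these members were at least 2-fold lower. Of these, EPCAM was at 185 and 82.4, CDH1, E-cadherin, at 24.5 and 8.17, ELF3 at 18.1 and 7.81 and GRHL2 at 5.60 and 1.53. CDH1 and ELF3 were lower in parental cells too (−1.12 and −1.13). Keratins diverged most, since KRT81, a hair keratin, was at 15.0 and 0.22 and KRT7 at 25.6 and 3.81, while KRT23 was at 0.30 and 12.2 and KRT19 at 618 and 720. The iron storage genes of the NRF2 list, FTL and FTH1, were at 2286 and 668 and at 4378 and 1604. FTH1 shares 62.4% of its exonic bases with another gene. F3, tissue factor, was at 151 and 27.4, with 14.4 and 20.1 in parental cells, and CCN2, another gene of the YAP list, at 1.87 and 9.07. Cholesterol synthesis genes had a median of −0.02, with 2 of 27 at least 2-fold higher. In fatty acid synthesis ACSL5 was at 3.65 and 16.3 and FASN at 120 and 239, over a list median of 0.13.

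The largest single ratios fell into kinds that a comparison with parental cells separates. CYP24A1, the vitamin D 24-hydroxylase (chromosome 20, 54153449 to 54173973), was listed at 0 without siRNA and at 38.1 with control siRNA, against 73.4 and 67.3 in parental cells and 13.6 and 15.4 with EHMT2 siRNA in resistant and parental cells. KITLG, the ligand of the receptor KIT (chromosome 12, 88492793 to 88580851), was at 4.01 and 110, a 27.3-fold difference in FPKM, against 159 and 127. PDE4B, a cyclic AMP phosphodiesterase (0.58 and 24.8), SYT1, a synaptotagmin (0.48 and 21.5), NME4, a mitochondrial nucleoside diphosphate kinase (1.59 and 45.8), IAH1 (0 and 14.2) and SMARCA1, a chromatin remodeller (1.99 and 33.7), had the same form. All of these were between 8.03 and 46.7 FPKM in both matching parental libraries. DCLK1 differed from them, at 0.25 and 12.6 in resistant and 0.27 and 1.26 in parental cells. Outside the naming rule, and chosen after their values were seen, the laminin chain LAMB1 (3.47 and 43.1) and the transcription factor SOX4 (2.90 and 29.8) had the form of CYP24A1. Among genes lower with control siRNA, IGFBP6, a binding protein of insulin-like growth factors, was at 178 and 16.5 (12.6 and 21.8 in parental cells), and the tetraspanin TSPAN1 at 38.7 and 3.66 (4.09 and 2.07). Of the genes at 0 on one side, 8 were at 5 FPKM or more only with control siRNA and 4 only without it.

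**Figure D5:**
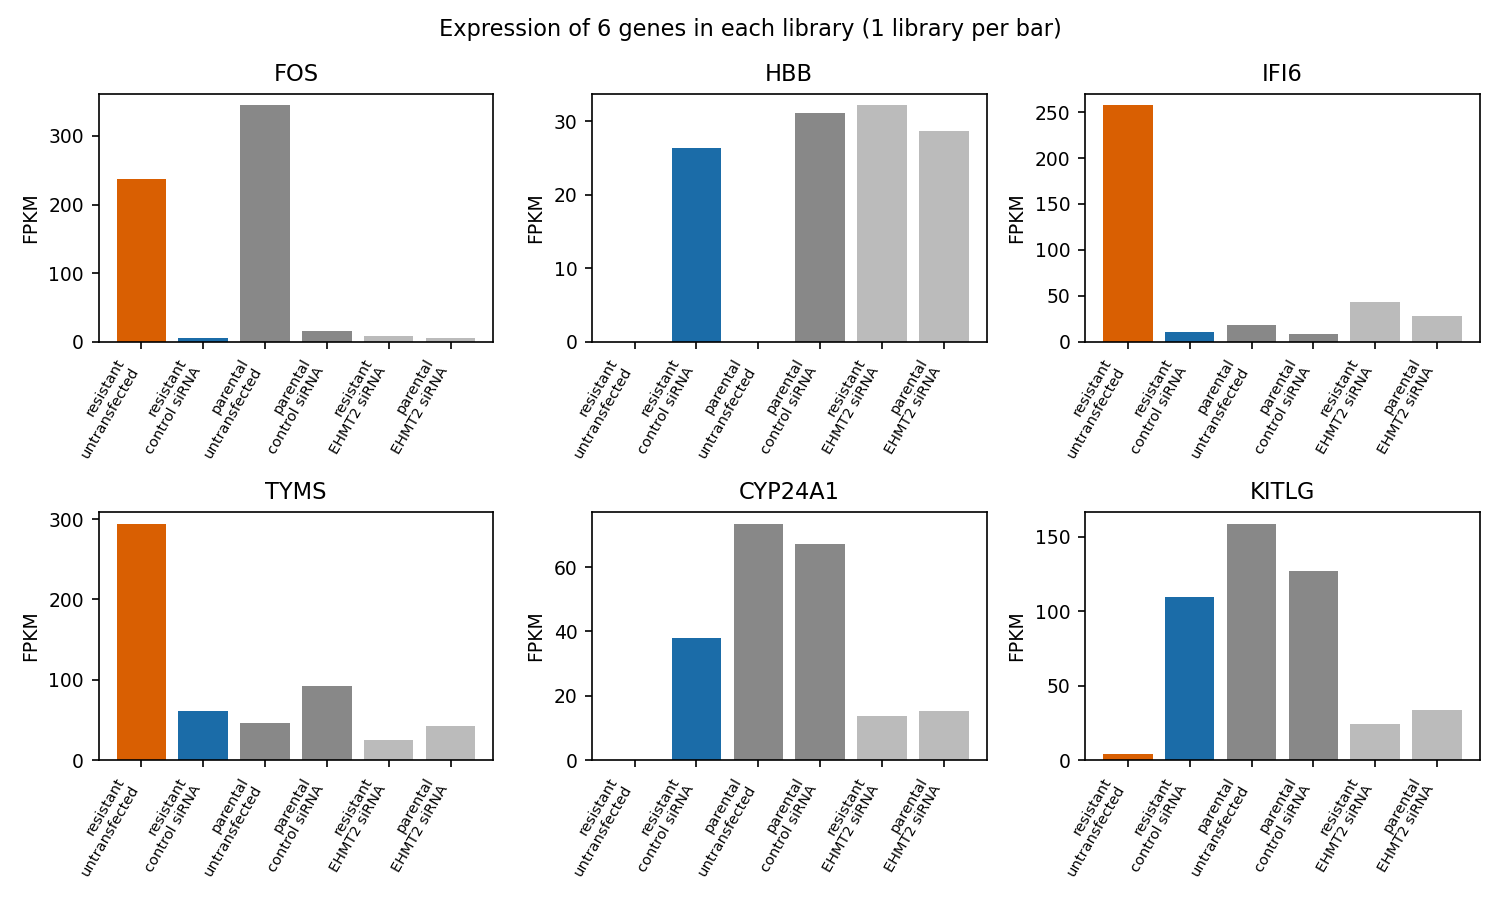
FPKM of 6 genes in each library, with 1 bar per library, untransfected resistant cells in orange and resistant cells with control siRNA in blue. FOS is high in both untransfected libraries and HBB is present in all 4 siRNA libraries, while IFI6 and TYMS stand out, and CYP24A1 and KITLG are lowest, in untransfected resistant cells alone.

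Adult globin messages were higher with siRNA in both lines. HBB (chromosome 11, 5225464 to 5229395) was listed at 0 in both untransfected libraries and was at 26.4 and 31.1 FPKM with control siRNA in resistant and parental cells, and at 32.2 and 28.7 with EHMT2 siRNA. HBA1 was at 0 and 16.8 in resistant cells and HBA2 at 0 and 20.1. In parental cells HBA1 was at 0.86 and 23.5 and HBA2 at 1.10 and 26.4. HBA1 and HBA2 are near-identical copies, so their reads may be divided between them. ALAS2, AHSP, SLC4A1, CA1, HBM and HBQ1, other genes of red blood cells, were listed at 0 in every library. Some genes on shared exons also differed in both lines, and PIK3R2 and AC007192.1 changed places. PIK3R2 was at 0.58 and 31.8 and AC007192.1, a readthrough model with 96.1% of its exonic bases in common with PIK3R2, at 26.9 and 1.33, while the sum of both was 27.5 and 33.2. SENP3-EIF4A1, which shares 88.0% with EIF4A1, was at 1.21 and 17.7 in resistant cells, where EIF4A1 was at 281 and 400. AC093512.2, which shares 49.2% with ALDOA, was at 43.3 and 3.80 there, with ALDOA at 733 and 534. Neither of these pairs changed places. PIK3R2, AC007192.1, SENP3-EIF4A1 and AC093512.2 are uncertain. So are AC023055.1 (16.2 and 0.28), AC004922.1 (44.5 and 3.78), AC087721.2 (6.10 and 0) and CASTOR1 (2.35 and 12.1), which also share exons with other genes.

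What both lines had in common could be tested, in an additive limma fit over all 6 libraries with line and treatment as terms, where the interaction of both is the error. Of 11521 genes 4 rose with control siRNA (0.0347%) and 1 fell (0.00868%) at an adjusted p under 0.05 with Benjamini-Hochberg adjustment, and 813 had an unadjusted p under 0.05. HBB rose by 4.89 (SE 0.19, adjusted p = 0.0087, limma), and HBA1, HBA2 and SENP3-EIF4A1 rose by 3.94, 4.05 and 3.34, each with an adjusted p of 0.0232 (limma). FOSB fell by 5.07 (SE 0.24, adjusted p = 0.0113, limma), whereas FOS, with an estimate of −4.88 (SE 0.48), did not pass (adjusted p = 0.12, limma). Leaving out 1 library moved these calls by more than 1.5 times. They came to 5 higher and 6 lower without the resistant EHMT2 siRNA library, and to 5 and 5 without the parental one. Leaving out an untransfected or a control siRNA library left 1 library of that kind, so nothing is read from those counts. Without an untransfected library the spread comes from the siRNA libraries only, and the lone untransfected library is assumed to vary like them. Without the untransfected parental library the estimate is not the resistant difference alone, as all 4 siRNA libraries enter it. These p-values measure only the spread among single libraries.

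The gene that the knockdown targets differed by less than 2-fold. EHMT2 (chromosome 6, 31879759 to 31897687) was at 27.3 FPKM without and 19.5 with control siRNA, a ratio of −0.47, and at 19.8 and 31.7 in parental cells, a ratio of 0.65. EHMT1, its partner in the complex, had −0.27 and 0.71. CDKN1A, the p53-induced inhibitor of the cell cycle, had −0.37 and 0.20. The p53 targets had a median of −0.36 over 29 members (−0.01 in parental cells), with PHLDA3 and DDB2 at −1.68 and −1.03 and CCNG1 and BBC3 at 1.11 and 1.05. ACTB and GAPDH, often used as references, had 0.13 and −0.29, and ACTB turned to −0.45 under quantile normalisation. HNF4A, a transcription factor of gut epithelium, was listed at 0 in all 3 resistant libraries and lay between 1.68 and 1.95 in all 3 parental ones. Genes at least 2-fold from their own parental partner both without siRNA and with control siRNA numbered 33 higher and 22 lower. Taken singly, the comparison without siRNA had 408 higher and 460 lower of 11731 genes (7.4% apart). The comparison with control siRNA had 185 higher and 111 lower of 11557 (2.56%).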

How the data were processed

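Messenger RNA of 6 groups with 1 library each was sequenced from libraries made with the TruSeq RNA v2 kit, as stated in the labels' protocols. StringTie 2.1.1, HISAT2 2.2.1, cutadapt 4.9 and FastQC 0.12.1 are listed with build GRCh38 in the submitters' processing notes, while the annotation release and strand setting were not given in the sources used here. FPKM values were deposited by the authors, 1 table of 19957 rows per library. Some genes that the naming rule or a described list takes are not reported here, while counts and medians include them. Depth is unknown, so no counting error is given.

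Tables were joined by gene ID, duplicate symbols were resolved to the row of highest mean, and coordinates and shared exonic bases were taken from GENCODE 29. Ratios are log2 ratios of FPKM plus 1, for genes that reached 1 FPKM in either library. Limma 3.58.1 (R 4.3.3) fitted the additive model to genes that reached 1 FPKM in 3 or more libraries. The fit used a trend of variance on mean expression. It was also run on simulated data with the same spread for all genes and no interaction of line and treatment. That run checks the code and not the p-values given here.

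The genes, the 51 lists and the comparison itself were chosen with earlier results of these data known. Genes are named by rule among those at 5 FPKM or more in either resistant library: the 12 highest and 12 lowest by ratio, 6 at either end by how far the lines differed and 6 at either end by the smaller of both ratios, EHMT2, EHMT1, TYMS, CDKN1A, ACTB and GAPDH, members of described lists, and every gene of the interference and RNA sensing lists. Alternatives were another pseudocount, other filters, folds and scalings, leaving out genes with shared exons or the short arm of chromosome 18, and leaving out each library. Rescaling without ribosomal protein and mitochondrial messages was added after the data were seen.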

Additional observations from a re-analysis of the deposited data

Results flagged for a closer look

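The genes given next were at least 2-fold apart in opposite directions in the 2 lines, and the difference between the lines was not tested, as each line has 1 library per condition. Values are log2 ratios of control siRNA to untransfected cells. Higher in resistant and lower in parental cells were KRT23 (3.34 and −1.34), KIAA0040 (2.83 and −2.23), AREG (2.02 and −1.17), DUSP5 (1.90 and −1.59), ACSL5 (1.89 and −1.60), CCN2 (1.81 and −1.21) and ERRFI1 (1.61 and −1.25). Among stress response genes the values were 1.71 and −2.08 for CHAC1, 1.66 and −2.55 for TRIB3, 1.41 and −1.64 for DDIT3 and 1.12 and −1.73 for ASNS. The ribosomal protein genes RPS3A and RPS18 had 1.46 and −1.09, and 1.45 and −1.18. TNFRSF6B (1.66 and −5.02) and INO80B-WBP1 (1.84 and −3.16) share all their exonic bases with other genes and are uncertain. Lower in resistant and higher in parental cells were CLSPN (−1.19 and 1.12), HSPA1A (−1.19 and 1.52), HSPA1B (−1.22 and 1.51) and AC117378.1 (−2.97 and 1.63), whose exonic bases are all shared with another gene. As lists, cytosolic ribosomal proteins had medians of 1.09 and −0.56, and DNA replication genes −0.55 and 0.66.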

How the results depend on the processing

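No paired analysis was possible because each group holds 1 library and the groups share only replicate number 1. The 503 higher and 451 lower genes became 724 and 770 with a pseudocount of 0.1, 1296 and 1542 at 1.5-fold and 66 and 53 at 4-fold. The other 8 alternatives, the added rescaling among them, left both counts within 1.5 times. The 39 named ratios stayed on the same side of 2-fold in all 338 recomputations, and 1 changed sign, ACTB from 0.13 to −0.45 under quantile normalisation. The list medians stayed within 0.25 in 398 recomputations and moved further in 16, of which quantile normalisation and the absence of a filter account for 7 and 6. Lists with a median of 0.25 or more from 0 changed sign in 0 cases, while some closer to 0 did, such as cholesterol synthesis, heat shock and respiratory chain genes. In the additive limma fit the 5 calls became 3 with a pseudocount of 0.1 and between 3 and 2095 on leaving out 1 library. Both ends of that range come from fits that left 1 untransfected or 1 control siRNA library, so nothing is read from them. The fits that kept both libraries of each of these kinds gave 5 higher and 6 lower without the resistant EHMT2 siRNA library. Without the parental EHMT2 siRNA library they gave 5 and 5. Depth is unknown, so levels near 0 are not read as absence.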
